A study of Solanum lycopersicum with 24 samples.

Results

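TPS12 (Solyc06g059930), TPS17 (Solyc12g006570) and TPS33 (Solyc01g101170) are tomato genes for sesquiterpene synthases, enzymes that make sesquiterpenes, a class of the volatile terpenes of leaf glands. They were picked by locus number, 3 of the 34725 gene models in the deposited tables, and all 3 passed the filter on low counts. The locus numbers place TPS12 on chromosome 6, TPS17 on chromosome 12 and TPS33 on chromosome 1. A RefSeq gene table of the assembly SLM_r2.1 has 1 gene of each name on the same chromosome, and lists CAHS as another name of TPS12. That table does not hold the locus numbers, so names and loci could not be joined through it, and positions are given only as locus numbers, since no label or file header names a genome build.

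RNA came from isolated type VI gland cells of leaves. Type VI trichomes are hairs with a multicellular head that stores terpenes and flavonoids, and all plants had grown in soil for 5 weeks at 28 °C and a light level of 250 μE. The 3 genotypes were the af mutant and 2 complemented lines, labelled line 4 (CHI4) and line 9 (CHI9). The labels do not say which construct or promoter the lines carry or whether each is 1 transformant, and that af (anthocyanin free) lacks a working chalcone isomerase is general knowledge. Each genotype was collected 4 times, with 1 library per genotype and collection, and the file names date collections 1 and 2 to March 19 and 28 and collections 3 and 4 to May 5 and 12. The 12 libraries, each sequenced on 2 lanes that were summed, held 8.99 M to 70.9 M gene counts. Nothing in the labels says that the plants of different collections were separate batches, so p-values measure the spread between these collections.

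Sesquiterpene synthases act in the cytosol on farnesyl diphosphate, the product of the mevalonate pathway, and each enzyme folds this substrate into its own set of products. TPS12 makes β-caryophyllene and α-humulene, the main sesquiterpenes reported from type VI glands of cultivated tomato. Farnesyl diphosphate is also the substrate of squalene synthase, the entry to sterols, so terpenes and sterols draw on a shared pool.

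All 3 genes were lower in the mutant than in either complemented line, in all 4 collections. Levels are given as CPM, a gene's counts relative to its library's total after scaling by trimmed means (TMM), and are not corrected for gene length, so levels of different genes are not compared. TPS12 stood in af at 2459, 2236, 2862 and 2926 CPM in collections 1 to 4. In CHI4 the TPS12 values were 11730.3, 8212, 8829.5 and 10098 CPM, and in CHI9 they were 8664, 9376, 10539.8 and 10531 CPM. The highest af library thus lay below the lowest line library, by 2.81-fold, while the range of CHI9 lay within that of CHI4.

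TPS17 had 57.8, 47.2, 51.3 and 26.3 CPM in af. In CHI4 TPS17 had 1299.7, 669.6, 574 and 813 CPM, and in CHI9 it had 433, 501, 385 and 383 CPM. The 3 genotypes did not overlap at all for TPS17, with af lowest, CHI9 between and CHI4 highest, and the lowest line library was 6.63-fold above the highest af library.

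TPS33 was counted least deeply, with 4.95, 3.46, 6.13 and 1.61 CPM in af. CHI4 held 83.0, 21.4, 41.1 and 50.5 CPM of TPS33, and CHI9 held 77.0, 54.5, 56.2 and 91.0 CPM. Af was again below every line library, by 3.50-fold at the nearest pair, and the 2 lines overlapped. The lowest value, af in collection 4, rested on 41 counts, whose exact Poisson interval of 29.4 to 55.6 counts spans 1.15 to 2.18 CPM for counting error only.

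**Figure D1:**
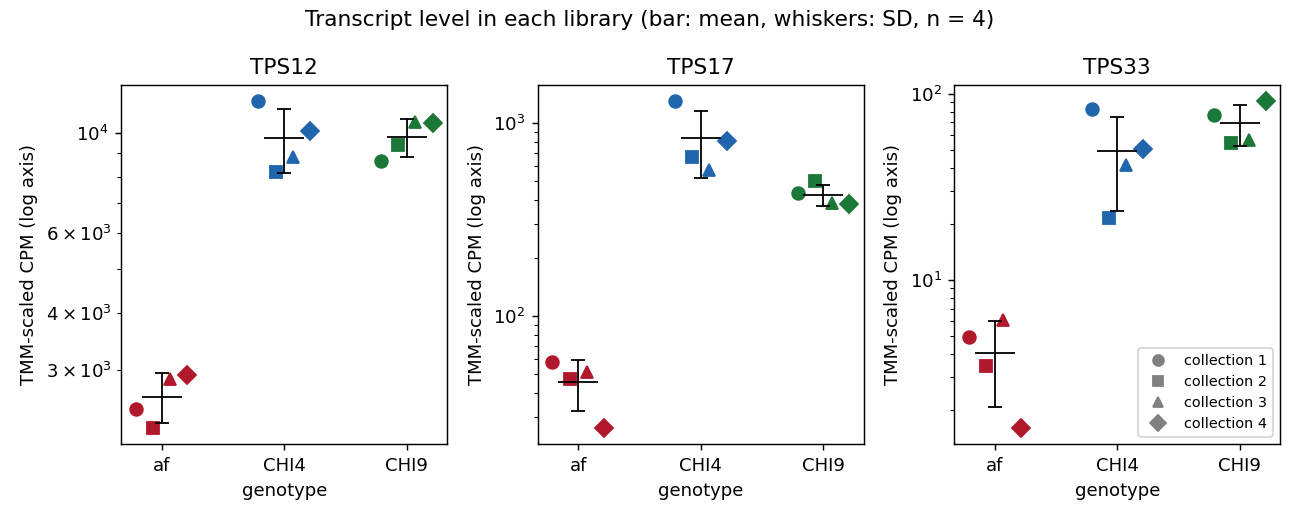
TMM-scaled CPM (log axis) of TPS12, TPS17 and TPS33 in the 12 libraries, by genotype, with a symbol for each collection and bars for the mean and SD (n = 4). The af libraries lie below all line libraries in each panel, and only TPS17 separates CHI4 from CHI9.

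The comparison of af with the lines asks what the loss of the af function goes with in gland cells. In edgeR's quasi-likelihood test over 18326 genes, all 3 genes passed the adjusted p threshold of 0.05 as lower in af, where 13.6% of tested genes did so. TPS12 fell by 1.90 on the log2 scale (SE 0.161, edgeR adjusted p = 8.09e-08), which is 3.72-fold with a 95% interval of -2.23 to -1.56 in log2. TPS17 fell by 3.71 (SE 0.259, edgeR adjusted p = 2.24e-08), or 13.1-fold, with a log2 interval of -4.25 to -3.16. TPS33 fell by 3.84 (SE 0.439, edgeR adjusted p = 4.90e-05), or 14.3-fold, with the widest interval, -4.79 to -2.88. Every af library lay below every line library in 8.68% of tested genes, these 3 among them. Ordered by fitted log2 difference from the lowest, TPS33 was 49th, TPS17 55th and TPS12 440th of the tested genes. In these bulk samples fewer cells that express a gene and less RNA per cell cannot be told apart.

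In the same fit against CHI4 alone, where 11.2% of tested genes were lower in af, the log2 differences were -1.89 for TPS12, -4.20 for TPS17 and -3.58 for TPS33. Against CHI9 alone, where 11.6% were lower, they were -1.90 for TPS12, -3.22 for TPS17 and -4.09 for TPS33. All 6 values passed the threshold (edgeR adjusted p from 1.70e-08 for TPS17 to 0.000153 for TPS33, both against CHI4). The 2 comparisons share the af libraries, so they are not independent of each other. TPS12 had nearly the same log2 difference against each line, TPS17 was farther from CHI4 and TPS33 farther from CHI9.

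As a share of all gene counts, with no scaling between libraries, the 4 af libraries held 0.318% ± 0.0296 (SD) for TPS12 and the 8 line libraries 0.882% ± 0.0884 (SD). For TPS17 the shares were 0.00556% ± 0.00172 in af against 0.0568% ± 0.0258, and for TPS33 0.000485% ± 0.000216 in af against 0.00539% ± 0.00218 (SD over the same libraries). The two-sided exact permutation p was 0.00202 for TPS12 and TPS17, the smallest that rearranging these libraries can give, and 0.00404 for TPS33. TMM factors were above those of the lines in all 4 af libraries, and with library totals as the only scaling the median log2 difference of all genes moved by 0.42. Under that scaling the log2 differences were -1.47 for TPS12, -3.28 for TPS17 and -3.42 for TPS33, each still past the threshold in edgeR.

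The depth of the fall differed between the genes, and the ratio of 2 genes within a library, which no scaling between libraries can alter, shows this. For each TPS17 count there were 42.5 to 111 TPS12 counts in af, 9.03 to 15.4 in CHI4 and 18.7 to 27.5 in CHI9. The log2 ratio of TPS17 to TPS12 averaged -5.89 ± 0.623 over the 4 af libraries against -4.06 ± 0.574 over the 8 of the lines (SD), a difference of -1.83. The TPS33 to TPS12 ratio averaged -9.49 ± 0.904 against -7.47 ± 0.568 (SD), a difference of -2.02. Both differences reached the smallest p of the two-sided exact permutation test (p = 0.00202, and 0.00303 adjusted over the 3 ratios). TPS17 and TPS33 thus fell by more than TPS12. The ratio of TPS33 to TPS17 averaged -3.60 ± 0.406 against -3.41 ± 0.950 (SD), and a difference was not detected (exact permutation p = 0.715, also 0.715 adjusted).

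**Figure D2:**
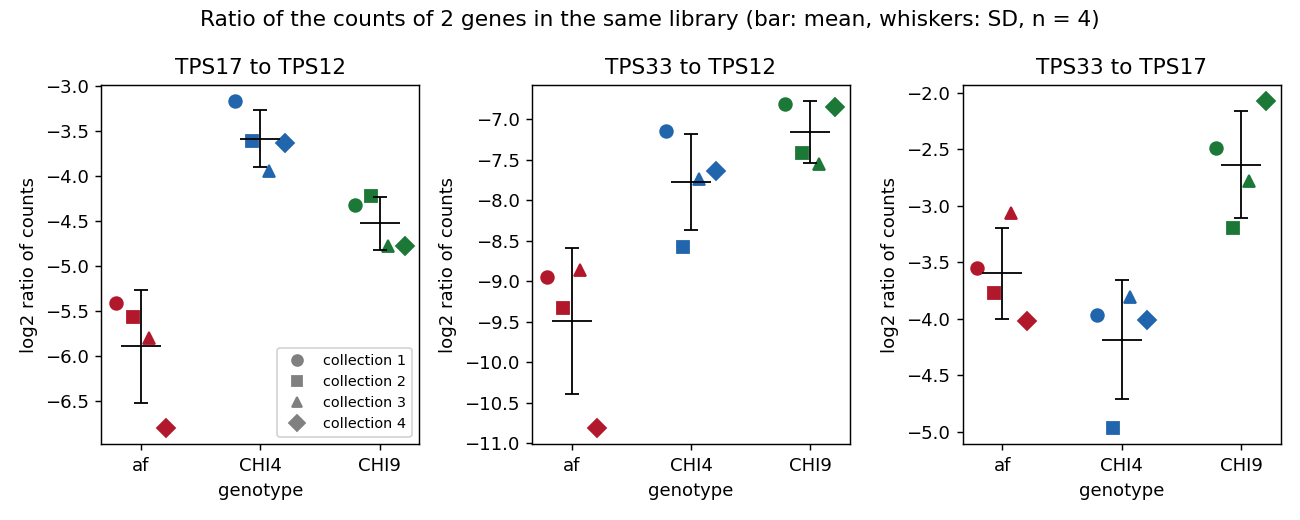
Log2 ratio of the counts of 2 genes in the same library for TPS17 to TPS12, TPS33 to TPS12 and TPS33 to TPS17, by genotype, with a symbol for each collection and bars for the mean and SD (n = 4). In the first and second panels all af libraries lie below all line libraries, and in the third af lies within the range of the lines, with every CHI9 library above every CHI4 library.

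The 2 complemented lines were compared to see whether complementation brought the genes to the same level. In edgeR 0 of the 3 genes passed the threshold between CHI9 and CHI4, where 0.0928% of tested genes did (0.196% with the collection as a block). At an unadjusted p under 0.05 there was 1, TPS17, as for 6.16% of tested genes, and DESeq2 also called 1 and limma-voom 0. TPS17 was lower in CHI9 by a log2 difference of -0.98 (SE 0.246, edgeR adjusted p = 0.294), with an interval of -1.50 to -0.46. Its adjusted p was 0.116 with the block and 0.0195 in DESeq2, which called 0.502% of tested genes, and ran from 0.0195 to 0.605 over all alternatives. The TPS17 mean was 839 ± 322 CPM for CHI4 and 426 ± 55.3 CPM for CHI9 (SD, n = 4 each). CHI9 was below CHI4 in 4 of 4 collections, by 1.34-fold in collection 2 to 3.00-fold in collection 1, and 8.12% of tested genes shared that pattern. No CHI9 library reached the lowest CHI4 library, which held for 1.72% of tested genes.

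The TPS12 mean was 9717 ± 1555 CPM for CHI4 and 9777 ± 922 CPM for CHI9 (SD, n = 4 each), a log2 difference of 0.01 with an interval of -0.34 to 0.36. The TPS33 mean was 49.0 ± 25.7 CPM for CHI4 and 69.7 ± 17.5 CPM for CHI9 (SD, n = 4 each), a log2 difference of 0.51 (SE 0.408, edgeR adjusted p = 0.923). The interval for TPS33 was wide, -0.38 to 1.40. CHI9 exceeded CHI4 for TPS33 in 3 of 4 collections, with collection 1 the exception at 0.928 times the CHI4 level.

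The ratio of TPS33 to TPS17 separated the lines. For each TPS33 count there were 14.0 to 31.2 TPS17 counts in CHI4, 4.21 to 9.18 in CHI9 and 8.35 to 16.2 in af. The log2 ratio of TPS33 to TPS17 was higher in CHI9 than in CHI4 by 1.55 (two-sided exact permutation p = 0.0286, the lowest of 70 arrangements, adjusted to 0.0429 over 3 ratios). The ratio of TPS17 to TPS12 was lower in CHI9, with a difference of -0.93 (exact permutation p = 0.0286, and 0.0429 adjusted), and that of TPS33 to TPS12 differed by 0.62 (exact permutation p = 0.143, also 0.143 adjusted). This comparison of ratios between the lines was chosen after the values had been seen, and it takes no account of the shared collections. With the lines exchanged only within a collection, 16 arrangements exist, the smallest possible exact permutation p is 0.125, and each of the 3 ratios gave that value, so the paired design cannot reach the threshold. Within collections the log2 ratio of TPS33 to TPS17 was higher in CHI9 in 4 of 4, by 1.03 to 1.93, and that of TPS17 to TPS12 was lower in 4 of 4, with differences of -1.15 to -0.61.

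Within a collection the libraries of the 3 genotypes were sampled at the same time. The mean log2 CPM of the lines exceeded af for TPS12 by 3.37-fold to 4.10-fold over the 4 collections, the narrowest range of the 3 genes. For TPS17 it did so by 9.16-fold in collection 3 to 21.2-fold in collection 4. For TPS33 the range was 7.78-fold in collection 3 to 41.0-fold in collection 4. Collection 4 was the extreme for both TPS17 and TPS33, and in both the af library was the one that stood low.

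**Figure D3:**
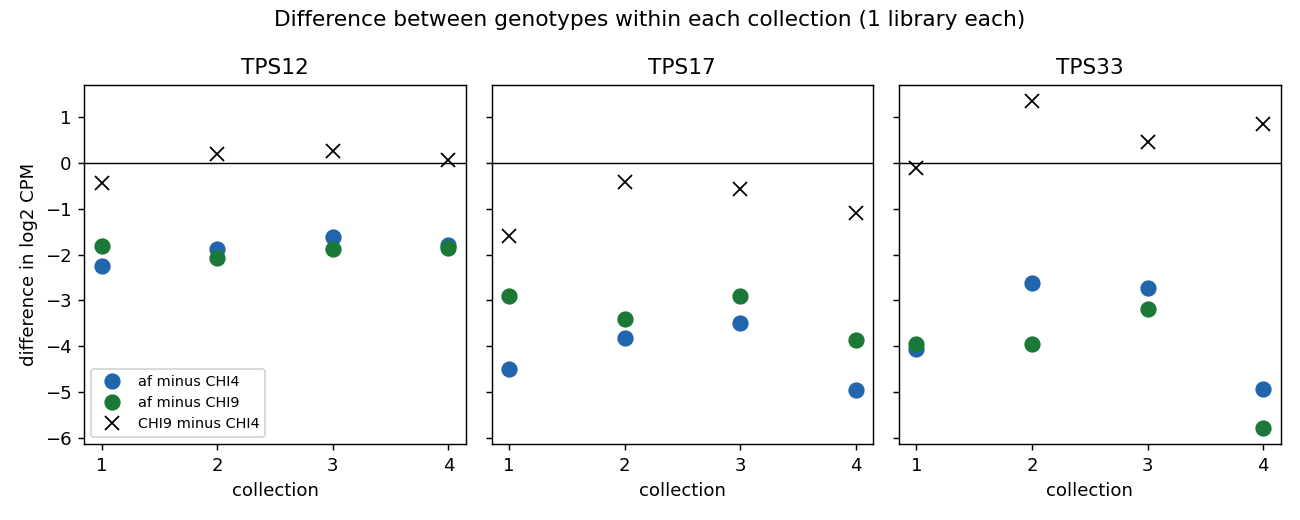
Difference in log2 CPM between genotypes within each of the 4 collections, with 1 library per genotype, for af minus CHI4, af minus CHI9 and CHI9 minus CHI4. All af differences lie below 0 for the 3 genes, TPS12 varies least, and the CHI9 minus CHI4 values are below 0 in all collections for TPS17 only.

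That af library, replicate 4, had uneven lanes, with 31.0% of its gene counts from lane 2, while in the other 11 libraries lane 2 held 0.982 to 1.00 times the counts of lane 1. Lane 2 gave 6 of its 41 TPS33 counts (14.6%, exact binomial interval 5.57% to 29.2%), against 37.7% of the counts of all chromosome 1 genes. For TPS17 lane 2 gave 193 of 671 counts (28.8%, interval 25.4% to 32.4%), against 28.7% for chromosome 12. TPS12 had 28.9% against 29.0% for chromosome 6. In CHI4 replicate 4, whose lanes were even over all genes, lane 2 gave 56.3% of TPS33 counts (interval 54.1% to 58.5%) against 53.1% for chromosome 1. With lane 1 alone the log2 difference of TPS33 in af from both lines averaged was -3.74 (edgeR adjusted p = 2.83e-05), and with lane 2 alone -3.91 (edgeR adjusted p = 8.95e-05). With lane 2 alone for these 2 libraries it was -3.85 (edgeR adjusted p = 0.000170), so the size and the call were nearly those of the summed lanes. When any 1 library was left out, the af log2 difference of TPS33 stayed between -4.09 and -3.60 (edgeR adjusted p of at most 0.000548).

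A fit with genotype and collection tested whether the genes differed between sampling times. In edgeR 0 of the 3 genes passed, where 1.93% of tested genes passed. With an unadjusted p under 0.05 there were 0 of the 3, against 15.2% of tested genes. The adjusted p was 0.703 for TPS12, 0.383 for TPS17 and 0.619 for TPS33. For May against March the log2 differences were 0.15 for TPS12 (interval -0.08 to 0.38), -0.40 for TPS17 (-0.75 to -0.04) and 0.05 for TPS33 (-0.65 to 0.76). In edgeR 0 of the 3 passed, with adjusted p values of 0.586, 0.286 and 0.965, where 0.971% of tested genes passed. At an unadjusted p under 0.05 there was 1 of the 3, TPS17, as for 14.1% of tested genes. A change in the af difference itself between March and May was not detected for any of the 3 genes, nor for any tested gene (0 of 18326 genes, 0%, in edgeR, with 505 at an unadjusted p under 0.05). Its log2 intervals were -0.34 to 0.79 for TPS12, -0.90 to 0.81 for TPS17 and -2.06 to 1.91 for TPS33, and the width for TPS33 leaves a several-fold shift within the interval.

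Of the 12 tested gene models beside the 3 genes 0 were lower and 3 higher in af in edgeR, counts too small to set apart from the 13.6% and 12.9% of all tested genes. Reads of overlapping or antisense models cannot be told apart here, since strand-specific counting is not stated. Of the 10 models around TPS12 (5 on each side in locus order) 5 had 0 counts in all libraries, 3 were tested, and 1 was higher and 0 lower in af. The 4 models before TPS12 and the 1 after it were all at 0. Around TPS17, 3 of 10 models were at 0 and 4 were tested, of which 1 was higher and 0 lower in af. Around TPS33, 3 of 10 were at 0 and 5 were tested, of which 1 was higher and 0 lower, with log2 differences from -0.18 to 0.64. The loci Solyc01g101180 and Solyc01g101210, listed as terpene synthases next to TPS33, had 0 and 8 counts over all 12 libraries. In the RefSeq table the genes around TPS33 include TPS31, TPS32 and TPS35. TPS9, another sesquiterpene synthase of the chromosome 6 group, is not analysed here. Related copies in such groups can share reads, and reads with several alignments, 4.68% to 7.56% per library, were left out of the gene counts.

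Most of the other tested terpene synthases also fell in af. Of 13 loci listed from general knowledge 8 were tested. In edgeR 7 of the 8 were lower and 0 higher in af, where 13.6% of tested genes were lower and 12.9% higher. At an unadjusted p under 0.05 there were 8 lower and 0 higher, against 18.1% and 19.4% of tested genes. DESeq2 gave 8 and 0, against 16.2% and 13.5%, and limma-voom 7 and 0, against 14.8% and 17.8%. The median log2 difference of the 8 loci was -2.23, against 0.07 for all tested genes. TPS39 (Solyc10g005390) had a log2 difference of -3.16, the TPS19/20 locus (Solyc08g005670) -2.79, TPS18 (Solyc08g005640) -2.41 and TPS21 (Solyc08g005720) -2.05. TPS3 (Solyc01g105870) had 0 counts in af and under 1 CPM in each line. The fitted log2 differences of TPS17 and TPS33 were below those of the 4 loci before TPS3, which were named for their large falls. TPS12 was above these 4 loci but below the other tested ones, TPS5 (-1.45), TPS38 (-1.37) and TPS8 (-0.64). This order was not tested.

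Farnesyl diphosphate, the substrate of the 3 enzymes, comes from the mevalonate pathway. Of 17 listed loci for its supply and use, all tested, 9 were lower and 0 higher in af in edgeR, where 13.6% of tested genes were lower and 12.9% higher. At an unadjusted p under 0.05 there were 10 lower and 1 higher, against 18.1% and 19.4% of tested genes. DESeq2 and limma-voom each gave 9 lower and 0 higher, against 16.2% and 13.5% in DESeq2 and 14.8% and 17.8% in limma-voom. The replicate block gave 11 and 1, against 15.9% and 15.8%, and library totals alone gave 7 and 3, against 5.93% and 36.1%. The median log2 difference was -0.49. The largest fall was in an HMG-CoA synthase (Solyc08g080170), which builds the HMG-CoA that the pathway reduces, at -1.43 (SE 0.153, edgeR adjusted p = 1.30e-06). An acetyl-CoA acetyltransferase (Solyc07g045350), the first step, had -1.23, and IPP isomerase (Solyc04g056390), which interconverts the building blocks, had -1.17. The mevalonate diphosphate decarboxylases Solyc11g007020 and Solyc04g009650, the last step of the pathway proper, had -1.12 and -0.999. The HMG-CoA reductase loci Solyc02g082260, Solyc02g038740, Solyc03g032010 and Solyc03g032020 did not pass in edgeR without the block. Their log2 differences were -0.44, 0.06, 0.10 and 0.57 (edgeR adjusted p = 0.114, 0.832, 0.802 and 0.111).

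The enzyme directly upstream and the competing enzyme did not pass in edgeR without the block. They are named for their place in the pathway, after their values were seen. Farnesyl diphosphate synthase (Solyc12g015860) averaged 78.3 ± 17.1 CPM for af, 100.4 ± 48.4 CPM for CHI4 and 117 ± 56.7 CPM for CHI9 (SD, n = 4 each). Its log2 difference of -0.47 (SE 0.305, edgeR adjusted p = 0.291) did not pass without the block. With the block more of the listed loci were lower in af, and the result of this locus there is not given here. Farnesyl diphosphate synthase did differ between collections (edgeR adjusted p = 0.00396), with 99.6 to 202 CPM in the 3 libraries of collection 3 and 59.2 to 98.3 CPM in the 9 others. Squalene synthase (Solyc01g110290) had a log2 difference of -0.01 (SE 0.126, edgeR adjusted p = 0.973), with means of 283, 282 and 288 CPM in af, CHI4 and CHI9.

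**Figure D4:**
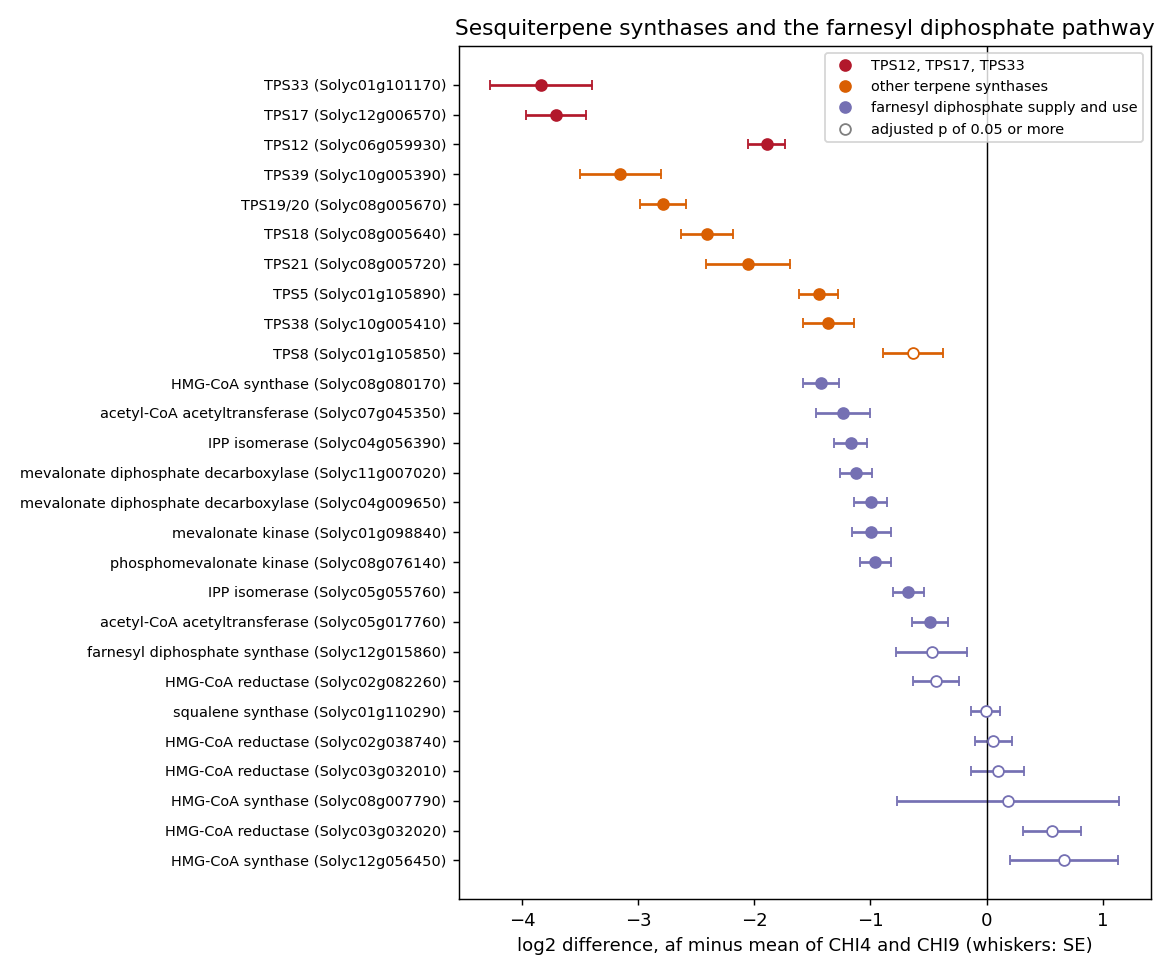
Log2 difference of af from the mean of the lines, with SE, for TPS12, TPS17 and TPS33, for other tested terpene synthases and for loci of farnesyl diphosphate supply and use, with open circles for an adjusted p of 0.05 or more. TPS33 and TPS17 lie farthest to the left, and farnesyl diphosphate synthase and squalene synthase are open circles in this fit without the block. TPS3, at 0 counts in af, is not drawn.

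Likeness was measured by Pearson's r of log2 CPM over the 12 libraries, with each gene compared to 18325 others. These values share library, genotype and scaling. A gene with a large genotype difference will be alike to others with a large difference in the same direction. Of the 5 genes most like TPS12, NDPS1 (Solyc08g005680), the neryl diphosphate synthase of the monoterpene branch, was 2nd with r = 0.995, and the other 4 have no name in the sources used here. The nearest genes to TPS17 and to TPS33 were likewise unnamed, with Solyc04g007680 first for TPS17 (r = 0.992) and Solyc01g100520 first for TPS33 (r = 0.981). Among named loci the acyltransferase ASAT3 (Solyc11g067270) ranked 51st for TPS17 (r = 0.961), and TPS5 (Solyc01g105890) 35th for TPS33 (r = 0.953). The 3 genes were not nearest to each other. TPS33 ranked 174th for TPS12 and 298th for TPS17.

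Type VI gland genes and markers of other cells were read beside these results. NDPS1 and MYC1 (Solyc08g005050), a regulator of type VI glands, were present in all genotypes, MYC1 at 677 ± 98.5 CPM for af, 661 ± 57.7 CPM for CHI4 and 707 ± 49.98 CPM for CHI9 (SD, n = 4 each). Of the 4 listed trichome genes 2 were higher in af, the trichome regulators EOT1 (Solyc02g062400, log2 0.99) and Woolly (Solyc02g080260, log2 1.76), and 1 was lower, NDPS1 (log2 -3.33). Without af replicate 4 the counts were 1 and 1. Woolly was low, with means of 2.38, 1.23 and 0.40 CPM in af, CHI4 and CHI9. Against CHI4 alone Woolly did not pass (log2 0.95, edgeR adjusted p = 0.340). For the trichome genes and the marker lists the shares of all tested genes were 12.9% higher and 13.6% lower. Lists of 3 or 4 loci cannot be set apart from these shares by their counts. Of 3 Rubisco small subunit genes, listed as markers of leaf mesophyll, 1 was lower in af (2 without CHI9 replicate 2) and 0 were at 0. The gene called in the main fit, Solyc02g063150 (log2 -1.86), had r = 0.968 with TPS12 over the 12 libraries. The summed level of the 3 Rubisco genes was 227 to 306 CPM in af, 334 to 422 CPM in CHI4 and 349.9 to 394 CPM in CHI9. Whether gland cells themselves express these genes was not tested, so the sum is not a measure of mesophyll. Of 4 acylsugar genes, markers of the tip cells of other trichomes, 3 were tested and 2 were lower in af. Their summed level was 31.4 to 48.3 CPM in af, 106.5 to 131 CPM in CHI4 and 71.6 to 86.7 CPM in CHI9, and ASAT1 (Solyc12g006330) was under 1 CPM in each genotype. The acylsugar sum had the same order of genotypes as TPS17, and the part of mesophyll or tip cells in the results was not tested.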

How the data were processed

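The deposited files hold raw counts per gene model, 1 file per lane, made by the authors with tools that include Trimmomatic, TopHat2, SAMtools and HTSeq, per the submitters' processing notes. No label or file header names versions, strand setting, annotation or build. The values are whole numbers, 24 files for 12 libraries, and 5 summary entries that name no gene were left out: reads in no gene took 8.49% to 12.2% and ambiguous reads 3.67% to 6.68%. A count of 0 allows up to 0.0423 CPM in the deepest and 0.334 CPM in the shallowest library (3 counts, counting error only).

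Lanes were summed. Genes were filtered by filterByExpr (18326 kept), scaled by TMM and fitted by robust quasi-likelihood in edgeR 4.0.16 (R 4.3.3) with the 3 genotypes in 1 fit, Benjamini-Hochberg over all tested genes, threshold 0.05. DESeq2 1.42.0 and limma-voom (limma 3.58.1) were alternatives. Intervals are 95%. Log2 CPM used a prior count of 2 and ratios a pseudocount of 0.5. Permutation tests compare absolute differences of means over libraries. The fit was also run on simulated data drawn without collection effects. The outcome of that run is not given here, so it lends no support to the results.

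The members, lists and tests were chosen with earlier results of these data known. Named genes are the 3 genes, up to 5 loci per list by size of difference, and the 5 genes most alike by correlation. Further listed loci were named after their values were seen. List names come from general knowledge, since 0 of 41476 RefSeq entries matched a locus number. Libraries are paired by the sampling time that the labels give. Deviations from genotype means correlated at -0.0394 to 0.184 within a collection (median 0.109) and had a median of -0.0324 otherwise.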

Additional observations from a re-analysis of the deposited data

Results flagged for a closer look

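The difference between the 2 complemented lines in how the 3 genes stand to each other met a rule for a closer look, because an unpaired test of that difference passed. The log2 ratio of TPS33 to TPS17 was 1.55 higher in CHI9 than in CHI4 (exact permutation p = 0.0286, 0.0429 adjusted over 3 ratios), with 4 of 4 CHI9 libraries above all CHI4 libraries. The log2 ratio of TPS17 to TPS12 was lower in CHI9 than in CHI4, with a difference of -0.93 (exact permutation p = 0.0286, 0.0429 adjusted). Within collections both exact permutation p values were 0.125, the smallest that pairing allows here. Both were tested after the values had been seen, and 0 of the 3 genes passed edgeR between the lines, while DESeq2 called 1 and an unadjusted p under 0.05 was found for 1.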

How the results depend on the processing

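The af differences of the 3 genes kept direction and stayed past the threshold under every alternative run, against the mean of the lines (log2 -1.95 to -1.47 for TPS12, -3.84 to -3.28 for TPS17, -4.09 to -3.42 for TPS33) and against each line. The replicate block changed no call of the 3 genes, and raised the CHI9 against CHI4 counts from 11 higher and 6 lower to 20 and 16. DESeq2 gave 47 and 45, with TPS17 called there (log2 -0.98), and limma-voom 7 and 3. Leaving out 1 library gave 6 to 12 higher and 3 to 7 lower, with 0 calls of the 3 genes. With library totals only, af had 6616 genes higher and 1086 lower than the mean of the lines (85.9% of calls higher, against 48.5% with TMM), 5704 and 862 against CHI4 and 4583 and 944 against CHI9, and May against March gave 58 higher and 226 lower (119 and 59 in TMM). Without CHI9 replicate 2 it gave 26 and 26. The difference of the TPS33 to TPS17 ratio between af and the lines, which was not called, ran from -0.41 to 0.0040 when 1 library was left out and turned sign without CHI9 replicate 4. Exact permutation within collections gave p = 0.0123, the smallest of 81, for the TPS17 to TPS12 and TPS33 to TPS12 ratios and the 3 shares. For CHI9 against CHI4 the ratio differences of TPS17 to TPS12 (-0.93) and TPS33 to TPS17 (1.55) passed the unpaired exact permutation test but not the replicate block within collections (p = 0.125, the smallest of 16 arrangements), an alternative added after seeing the data. The counts in lists under other settings were chosen after seeing the data. Depth limits TPS33 most, with 41 counts in its lowest library.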

Other observations

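Within genotypes TPS17 and TPS33 had a higher correlation with each other than either had with TPS12. After subtracting genotype means from log2 CPM, TPS17 and TPS33 had a Pearson r of 0.758 and a Spearman rho of 0.657 over the 12 libraries, which placed TPS33 45th of 18325 genes for TPS17. Without af replicate 4 and CHI4 replicate 1, the libraries farthest from the median, r was 0.475, so the relation rests in part on those libraries. TPS12 had r = 0.167 with TPS17 and 0.351 with TPS33 on the same measure, and these turned to -0.322 and -0.124 without CHI4 replicates 1 and 2, the libraries farthest from the median of TPS12. These are descriptions of libraries that share scaling and collection, with no test.

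Of the other terpene synthases, TPS8 (Solyc01g105850, edgeR adjusted p = 0.00148), TPS38 (Solyc10g005410, 0.0128) and TPS21 (Solyc08g005720, 0.0398) differed between collections after genotype, while TPS12, TPS17 and TPS33 did not pass that test. Whether those genes differ from the 3 sesquiterpene synthases in this respect was not tested.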
